A study of Mus musculus with 6 samples.

Results

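The 10 genes described here encode enzymes of glycolysis in mouse neurons: Hk1, Gpi1, Pfkp, Aldoa, Tpi1, Gapdh, Pgk1, Eno2, Pkm and Ldhb. They were chosen by name out of 31053 genes with a value in every library. In Ribo-STAMP the ribosome itself carries an RNA editor, the cytidine deaminase rAPOBEC1, and leaves marks (C read as T in the library) on the messages it handles. The readout is the number of such edits per read of a gene (EPR). Primary cortical neurons from wild-type C57BL/6J embryos at day 18 carried 1 of 2 fusions, RPL10A-STAMP (3 libraries) or RPL22-STAMP (3 libraries), and the comparison asks whether the choice of ribosomal protein changes the EPR of a gene. All cultures received floxuridine, were infected with AAV at 6 days in vitro, were given 1 µg/ml doxycycline for 48 h and were collected at 14 days in vitro. The fusions were under Tet-On control, with the transactivator driven by the synapsin promoter, so expression was directed to neurons. Mouse Rpl10a was joined to the C terminus of APOBEC1 and Rpl22 to its N terminus, so protein and orientation of the fusion cannot be told apart. Libraries without a fusion were not analysed here, so no background of edits was subtracted.

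Glycolysis splits glucose into pyruvate in the cytosol and yields ATP and NADH without oxygen. The upper steps spend ATP to phosphorylate and cleave the sugar, the lower steps return it, and lactate dehydrogenase interconverts pyruvate and lactate. Neurons rely on glycolysis at synapses, take up lactate released by glia and carry isozymes of their own, such as the gamma enolase encoded by Eno2. Several of these enzymes are encoded by genes with many processed pseudogenes, which are copies of the mRNA inserted elsewhere in the genome.

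The 6 libraries held between 9892 and 11195 genes with an EPR above 0, and 8046 genes were edited in all 6. The median EPR over those 8046 genes was between 0.0120 and 0.0161 in the RPL10A-STAMP libraries and between 0.00907 and 0.0129 in the RPL22-STAMP libraries. Each library was therefore scaled to a common median before the fusions were compared, and every fold change below is relative to the median gene. Of the markers of the labelled cell type, 9 of 9 neuron markers were edited in all 6 libraries. Of 6 astrocyte markers 5 were edited in all 6, of 6 oligodendrocyte lineage markers only Mbp was, and all 3 endothelial markers and 4 of 5 microglia markers were listed at 0 throughout. The mean EPR of those 5 astrocyte markers was 0.0218 (Gfap) to 0.0635 (Gja1) with RPL10A-STAMP and 0.0221 (Gfap) to 0.0523 (Aqp4) with RPL22-STAMP. For the neuron markers it was 0.00551 to 0.0541 and 0.00506 to 0.0387 (Tubb3 to Syt1 in both). Values per gene are therefore those of the whole culture. Of the 9 neuron markers 2 were called by the limma fit, against 14.3% of all genes tested. Both were higher with RPL22-STAMP, as were 5.77% of all genes. They were Syn1 (log2 fold change -0.82, limma adjusted p = 0.00814) and Gad2 (-0.54, adjusted p = 0.0446), and the other neuron markers were between -0.72 and 0.32. None of the 5 astrocyte markers tested was called, with log2 fold changes between -0.35 and 0.40. The part of cell makeup in the results below was not tested. These were bulk samples, so fewer edited cells and fewer edits per transcript cannot be told apart.

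All 10 enzyme genes were edited in all 6 libraries. A second GENCODE gene that shares the name Aldoa was listed at 0 in every library, and the values given for Aldoa are those of ENSMUSG00000030695. None of the 10 shared exon bases with another listed gene on its strand. Their representative transcripts differed widely in how much of them is repeated elsewhere in the genome. Of the 50-base runs of the transcript, 93.9% had an exact copy at another locus for Gapdh and 92.9% for Pgk1. The share was 40.5% for Pkm, 33.6% for Ldhb, 24.7% for Gpi1, 23.6% for Tpi1 and 15.2% for Aldoa, and it was 0.583% for Eno2, 0.0526% for Hk1 and 0 for Pfkp. Among 8039 tested genes with a transcript, 61.2% had no copied run and 0.510% had over 90% of their runs copied.

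A stretch of coding sequence inside 1 exon is shown for Pkm, the called gene with the largest difference. Others are from the most copied gene (Gapdh) and from one without a copy (Pfkp). Each is the 90-base window with the most exact copies among the windows considered, so its number of copies is not typical of the gene. The sequences are on the coding strand of GRCm38, 5′ to 3′, and capitals mark C, the base that the deaminase converts. Whether a given C was edited is not known from values per gene.
Pkm: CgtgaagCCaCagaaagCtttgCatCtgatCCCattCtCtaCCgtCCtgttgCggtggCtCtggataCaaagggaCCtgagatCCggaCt
Gapdh: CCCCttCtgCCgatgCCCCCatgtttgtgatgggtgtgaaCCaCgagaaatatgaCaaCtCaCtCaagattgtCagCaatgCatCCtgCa
Pfkp: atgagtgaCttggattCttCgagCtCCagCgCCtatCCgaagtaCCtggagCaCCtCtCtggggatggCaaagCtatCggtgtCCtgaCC
The Pkm window (chr9:59668576-59668665, plus strand) held 25 C and had 1 exact copy, at chr5:22725806-22725895. The Gapdh window (chr6:125162911-125163000, minus strand) held 26 C and was found unchanged at 40 other places. The Pfkp window (chr13:6648590-6648679, minus strand) begins at the start codon, held 25 C and had no copy.

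The level of editing spanned an order of magnitude across the pathway, as the plot of EPR by library shows. Pgk1, which encodes the phosphoglycerate kinase of the first ATP-yielding step, had the highest EPR of the 10, with 0.0283, 0.0300 and 0.0363 in the RPL10A-STAMP libraries and 0.0334, 0.0468 and 0.0531 in the RPL22-STAMP libraries. Hk1, which encodes the hexokinase that commits glucose to the cell, had the lowest mean, with 0.00535, 0.00252 and 0.00278 against 0.00396, 0.00355 and 0.00250. Pgk1 was the highest of the 10 in 6 of 6 libraries, and Hk1 was the lowest in 4, with Gapdh lowest in the others.

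**Figure D1:**
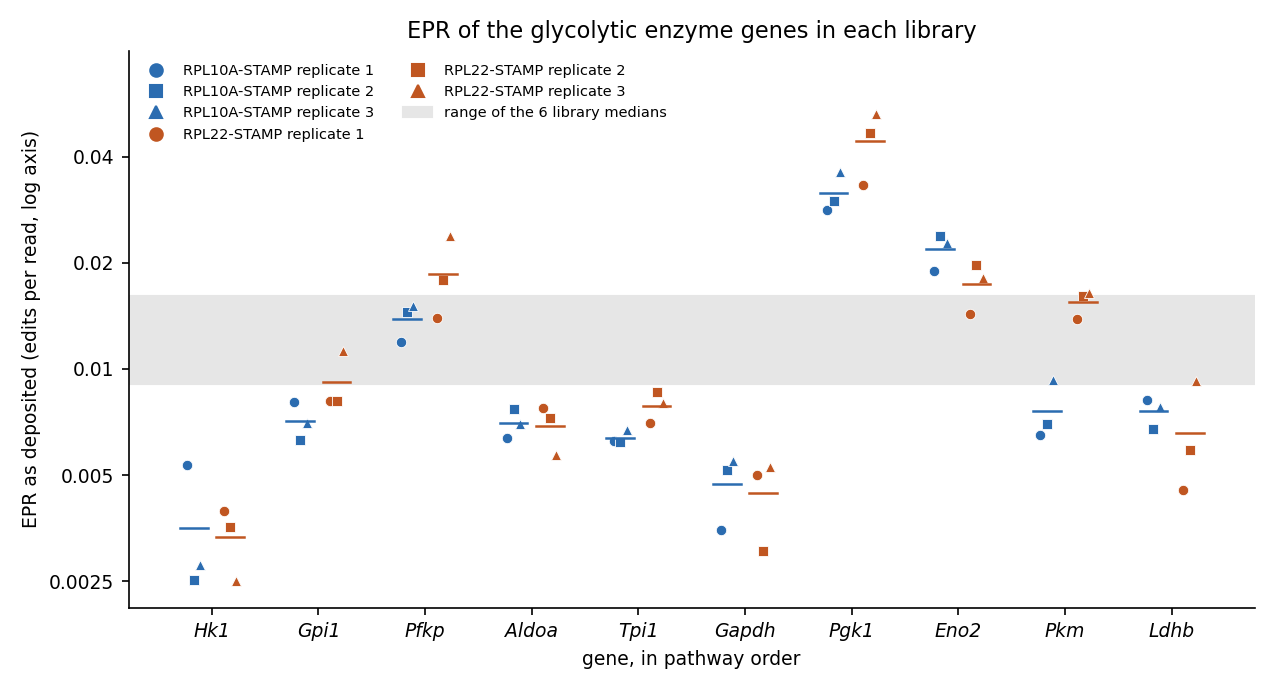
EPR as deposited (log axis) of the 10 genes, from hexokinase on the left to lactate dehydrogenase on the right, in each of the 6 libraries. Points are libraries, short lines are the means of 3, and the grey band spans the medians of the 6 libraries over 8046 genes. Pgk1 lies above the band in every library, and Hk1, Gapdh, Tpi1 and Aldoa lie below it.

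Ordered by the mean over the 6 libraries, the EPR fell from Pgk1 (0.0380) through Eno2 (0.0196), Pfkp (0.0162), Pkm (0.0115), Gpi1 (0.00814), Tpi1 (0.00713), Ldhb (0.00707), Aldoa (0.00696) and Gapdh (0.00458) to Hk1 (0.00344). Pgk1 exceeded Eno2, Pfkp exceeded Pkm, and Aldoa exceeded Gapdh in 6 of 6 libraries. Tpi1 exceeded Ldhb in 2 libraries and Ldhb exceeded Aldoa in 3, so the order among these 3 genes was not resolved. Gapdh exceeded Hk1 in 4 libraries. Division of EPR by transcript length in kilobases changed the order in the middle. EPR is already divided by the reads of the gene, and how edits and reads depend on transcript length was not tested. Values per kilobase are therefore descriptions only. Per kilobase, Pgk1 (0.0208) and Eno2 (0.00703) were still first and Hk1 (0.000894) last, while Ldhb (0.00542) moved up by several places and Pfkp (0.00391) and Gpi1 (0.00282) moved down.

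Within a library, most of these enzymes ranked low. Their median EPR was between 0.449 and 0.914 times the median of the library, and 5 to 8 of the 10 genes were below that median in each library. Hk1, Aldoa, Tpi1, Gapdh and Ldhb were below it in 6 of 6 libraries and Gpi1 in 5. Pgk1 and Eno2 were above it in all 6. Pfkp and Pkm were below it in the 3 RPL10A-STAMP libraries and above it in the 3 RPL22-STAMP libraries. With RPL10A-STAMP, Pfkp was only just below it, at percentiles 47.0 to 49.7. A rank within a library does not depend on any scaling between libraries.

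**Figure D2:**
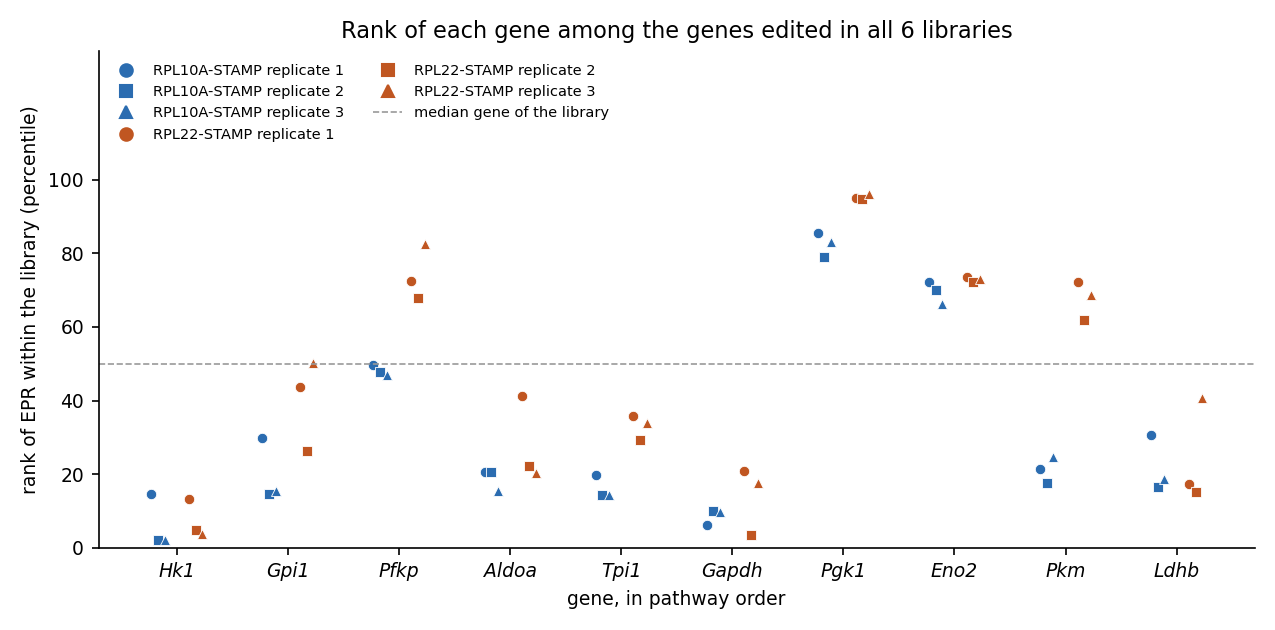
Percentile rank of each gene's EPR among the 8046 genes edited in all 6 libraries, within each library; points are libraries and the dashed line is the median gene. Pkm ranks between 17.6 and 24.7 with RPL10A-STAMP and between 62.0 and 72.1 with RPL22-STAMP, whereas Eno2 ranks between 66.1 and 73.6 in all 6.

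Of the 10 genes, 2 differed between the fusions, Pkm and Pgk1, and both were higher relative to the median gene with RPL22-STAMP. Over all genes tested with limma, 14.3% were called in either direction, 5.77% as higher with RPL22-STAMP and 8.51% as higher with RPL10A-STAMP. On scaled values the 2 groups of libraries did not overlap for 4 of the 10 genes (Pkm, Pgk1, Pfkp and Tpi1), against 37.1% of all genes, a share close to that background. The fitted difference was towards RPL22-STAMP for 10 of 10 genes, against 51.3% of all genes, and its median was -0.22 (log2, RPL10A-STAMP over RPL22-STAMP) against -0.01 over all genes. Without scaling, 5 of the 10 differences were negative, against 32.8% of all genes, with a median of -0.06 where that of all genes was 0.18.

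Pkm, which encodes the pyruvate kinase that forms pyruvate and ATP, had an EPR of 0.00650, 0.00697 and 0.00931 in the RPL10A-STAMP libraries and of 0.0139, 0.0161 and 0.0165 in the RPL22-STAMP libraries. Every RPL22-STAMP library was above every RPL10A-STAMP library. The means were 0.00759 ± 0.00150 and 0.0155 ± 0.00140 (SD, n = 3 each), a ratio of 2.04, and the exact permutation test gave p = 0.1, the smallest that 3 against 3 allows. The limma fit gave a log2 fold change of -0.74 (SE 0.13, adjusted p = 0.0130). The pseudocount of 0.01 shrinks this value, and with none it was -1.43. M1 and M2 forms of the enzyme come from alternative exons of this gene, and EPR per gene does not separate them. These p-values measure the spread between the samples, which the sources describe both as biological and as technical replicates.

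Pgk1, whose EPR is given above, had means of 0.0316 ± 0.00418 with RPL10A-STAMP and 0.0444 ± 0.0101 with RPL22-STAMP (SD, n = 3 each). As deposited, the groups overlapped, since RPL22-STAMP replicate 1 (0.0334) was below RPL10A-STAMP replicate 3 (0.0363), and the exact permutation test gave p = 0.2. Once each library was scaled they did not overlap, with 0.0247 to 0.0297 against 0.0454 to 0.0592. The limma fit gave a log2 fold change of -0.68 (SE 0.15, adjusted p = 0.0277), and of -0.86 with no pseudocount.

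Both calls rest on few libraries, and calls over all genes also fell when an RPL10A-STAMP library or RPL22-STAMP replicate 1 was left out. With all 6 libraries 14.3% of all genes were called. Without RPL10A-STAMP replicate 1, 2 or 3 the share was 8.29%, 5.32% and 4.59%. Without RPL22-STAMP replicate 1 it was 10.9%, and the shares without RPL22-STAMP replicate 2 or 3 are not given here. Without RPL10A-STAMP replicate 2 the limma adjusted p was 0.0546 for Pkm and 0.0989 for Pgk1, and without RPL10A-STAMP replicate 3 it was 0.0520 and 0.0888. Pgk1 alone lost its call without RPL10A-STAMP replicate 1 (adjusted p = 0.0623) and without RPL22-STAMP replicate 3 (0.0696), while their log2 fold changes stayed between -0.79 and -0.58 in these fits with a library left out.

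The remaining 8 genes did not pass the test. Pfkp, which encodes the platelet form of phosphofructokinase at the main regulated step, had an EPR of 0.0119, 0.0145 and 0.0151 (RPL10A-STAMP) against 0.0140, 0.0179 and 0.0238 (RPL22-STAMP). The 2 groups overlapped as deposited and separated after scaling, and the log2 fold change was -0.49 (95% confidence interval -0.84 to -0.13, limma adjusted p = 0.0754). Tpi1, which encodes the isomerase of the triose phosphates, had 0.00625, 0.00621 and 0.00670 against 0.00701, 0.00859 and 0.00802, with no overlap, and a log2 fold change of -0.28 (-0.55 to -0.02, limma adjusted p = 0.140). Gpi1, which encodes glucose-6-phosphate isomerase, had 0.00807, 0.00630 and 0.00700 against 0.00810, 0.00810 and 0.0113. Its groups lay next to each other as deposited and overlapped after scaling, and the log2 fold change was -0.33 (-0.68 to 0.02, limma adjusted p = 0.186).

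For the other 5 genes the libraries of both fusions were interleaved. Aldoa, the aldolase that cleaves fructose bisphosphate, had an EPR of 0.00639, 0.00767 and 0.00698 (RPL10A-STAMP) against 0.00777, 0.00727 and 0.00568 (RPL22-STAMP). Gapdh, the dehydrogenase that makes NADH, had 0.00350, 0.00517 and 0.00547 against 0.00500, 0.00305 and 0.00526. Ldhb, a lactate dehydrogenase subunit often linked to lactate use, had 0.00818, 0.00673 and 0.00782 against 0.00453, 0.00590 and 0.00927. Eno2 was the gene of the 10 with the most even rank, with 0.0190, 0.0238 and 0.0228 against 0.0144, 0.0197 and 0.0181. The log2 fold changes of Aldoa, Gapdh, Hk1, Ldhb and Eno2 were between -0.15 and -0.03. Their 95% confidence intervals reached from -0.47 to 0.29, so differences of that size in either direction were not resolved. The pseudocount of 0.01 narrows these intervals for low values. With none, the SE was 0.55 for Hk1, 0.43 for Gapdh, 0.37 for Ldhb, 0.33 for Aldoa and 0.18 for Eno2. Larger differences in EPR itself were thus not resolved either for Hk1, Gapdh, Ldhb and Aldoa. For Hk1, Aldoa, Gapdh, Eno2 and Ldhb the deposited means were higher with RPL10A-STAMP, and the sign turned with scaling.

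A fit that removes the trend of the fold change with GC content over all genes gave other values for several of the 10. The GC content of the 10 transcripts was between 48.9% and 57.7%, with a median of 54.2%, and the median over all genes tested was 48.9%. Among the 10, Pfkp (48.9%) and Pgk1 (49.7%) had the lowest GC content, with differences of -0.49 and -0.68. Pkm had the highest (57.7%), with a difference of -0.74. A link between GC content and the differences among the 10 was not tested. After the trend over all genes was removed, the median of the 10 genes was 0.02 and 5 of the 10 were negative. Pkm, the most GC-rich of the 10 (57.7%), then had a log2 fold change of -0.41 and was no longer called (limma adjusted p = 0.0952), whereas Pgk1 (49.7%) had -0.63 and was (adjusted p = 0.0462). The share of all genes called was 8.68% in that fit.

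**Figure D3:**
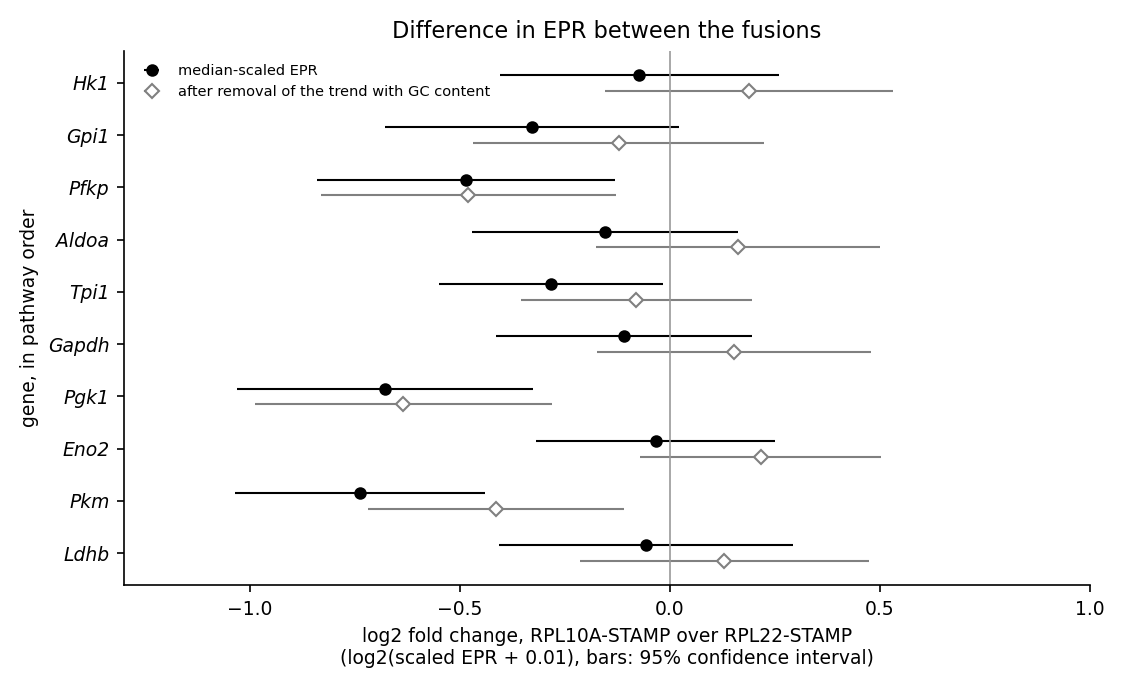
Log2 fold change of each gene, RPL10A-STAMP over RPL22-STAMP, on log2(scaled EPR + 0.01) with 95% confidence intervals from limma (n = 3 libraries each), before (filled circles) and after (open diamonds) removal of the trend with GC content. All 10 circles are left of 0; after removal 5 diamonds are to the right of 0, and Pgk1 changes little (-0.68 to -0.63).

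Since reads from a copied stretch cannot be placed by sequence alone, EPR was set beside the copied share. The genes with nearly all runs copied did not share a level. Gapdh (93.9%) had a mean EPR of 0.00458 and Pgk1 (92.9%) one of 0.0380, and Pgam1, which encodes the phosphoglycerate mutase that follows Pgk1 in the pathway, had 94.8% of its runs copied and EPR values of 0.164 to 0.238, above each of the 10 genes in every library. The 41 genes with over 90% of runs copied had a median EPR of 0.0275, and all tested genes one of 0.0135. The 3 members with almost no copied run, Pfkp, Eno2 and Hk1, spanned 0.00344 to 0.0196. Without Gapdh and Pgk1, 1 of 8 genes was called, against 14.3% of all genes, but Pgk1 is itself a called gene. The median log2 fold change was -0.22 either way, since Gapdh (-0.11) and Pgk1 (-0.68) lie on either side of it. Neither value can therefore show whether copied genes matter. Runs of the coding sequence were found at 219 other loci for Gapdh and at 5 each for Pgk1 and Pgam1. The authors' mapping kept reads with at most 10 locations, a limit that reads wholly inside the Gapdh window with 40 exact copies would exceed. Equal copied shares thus do not mean equal handling of reads. How the kept reads with several locations were divided is not given in the sources used here, and the part of such reads in these values was not tested.

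Some listed genes hold an exact run of a member in their own exons, on a background of 18242 of 31053 genes listed at 0 in all 6 libraries. Gapdh runs were found in the exons of 5 such genes, of which Gm10358 (a run of 437 bases), Gm3839 (315 bases), Gm15294 and Gm11214 were listed at 0 in all 6 libraries and Peli2 was edited in 5. Aldoart1, a testis-type aldolase gene that holds a run of 86 bases of Aldoa, was listed at 0 in all 6. The longest copies of Pgk1 and Gapdh lay outside listed genes, with 1356 bases of Pgk1 on chromosome 12 and 1065 bases of Gapdh on chromosomes 4 and 5. For Gpi1 the runs inside other genes were at most 63 bases long and were spread over 45 genes, of which 19 were edited in all 6 libraries and 15 were listed at 0 throughout.

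**Figure D4:**
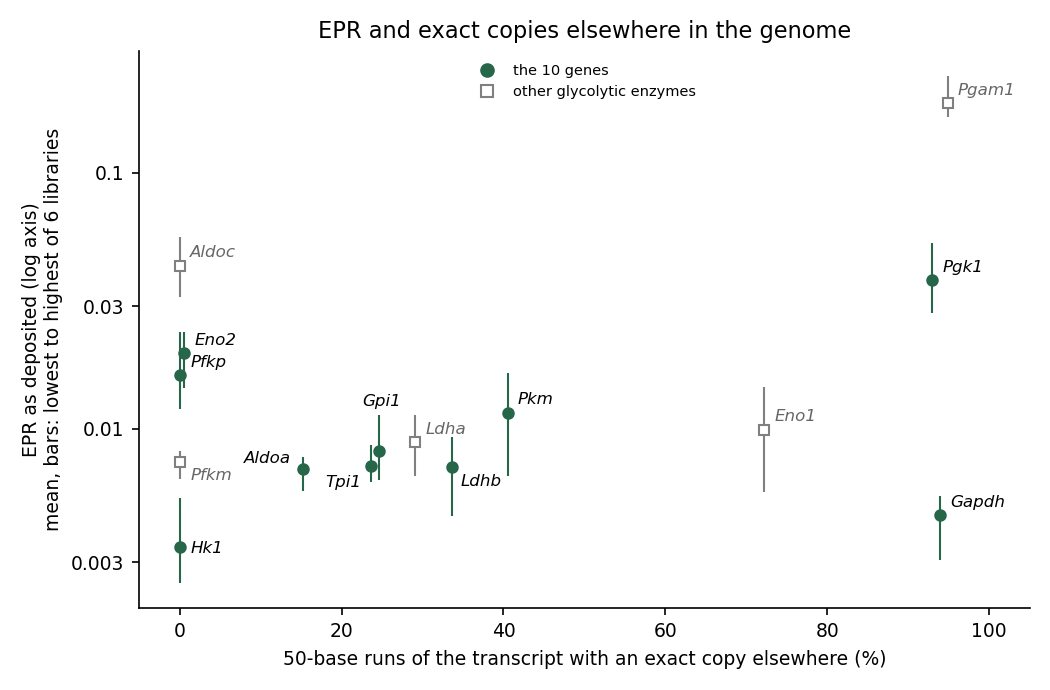
Mean EPR as deposited (log axis; bars from the lowest to the highest of 6 libraries) against the share of 50-base runs of the transcript with an exact copy elsewhere in the genome, for the 10 genes and 5 other glycolytic enzymes. Gapdh (0.00458) and Pgam1 (0.187) lie at nearly the same copied share and far apart on the EPR axis.

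Isozymes of the same step differed in EPR. Aldoc, the aldolase C of brain, was edited above Aldoa in 6 of 6 libraries, with Aldoa at 0.115 to 0.214 times its EPR, and it was still above Aldoa in all 6 per kilobase of transcript. Pfkp was above Pfkl in 6 of 6 libraries (at least 1.16 times, with a median of 2.97) and above Pfkm in 6 of 6 (1.54 to 2.92 times), also per kilobase. Eno2 was above Eno1, which encodes the ubiquitous alpha enolase, in 6 of 6 libraries (1.26 to 4.21 times) but in 4 of 6 per kilobase. Ldhb was above Ldha in 1 library, and in 4 per kilobase, so no order was resolved for lactate dehydrogenase. These ratios are descriptions of the same 6 libraries, and 72.2% of the runs of Eno1 and 29.1% of those of Ldha were copied elsewhere. Forms of other tissues, among them Pgk2, Pklr, Ldhc and Gapdhs, were listed at 0 in all 6 libraries.

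The 23 other glycolytic enzymes and isozymes gave no call among the 9 that could be tested with limma, where 2 had an unadjusted p under 0.05. The largest differences among them were those of Eno1 (log2 fold change -0.50, SE 0.16, limma adjusted p = 0.0828) and Pgam1 (-0.46, SE 0.20, adjusted p = 0.173). The median was -0.18, and 6 of the 9 were negative. Over the 3 remaining lists of regulators, transporters and the pentose phosphate pathway, 6 genes were called. Of the 65 genes of all 4 lists 34 were tested, and 6 of 34 (17.6%) is near the 14.3% of all genes.

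Among 13 tested regulators and branch points of 20, 3 were called. Hif1a, the hypoxia-inducible factor that drives transcription of glycolytic genes, was higher with RPL10A-STAMP, at 0.0295, 0.0380 and 0.0473 against 0.00892, 0.00884 and 0.0101 (log2 fold change 1.05, SE 0.14, limma adjusted p = 0.00540). Its exons share 2.51% of their bases with another gene. Pgm2l1, which makes glucose 1,6-bisphosphate in brain, was higher with RPL10A-STAMP as well (0.69, SE 0.14, adjusted p = 0.0200). Gpd1, the glycerol-3-phosphate dehydrogenase that draws on triose phosphate and NADH, was higher with RPL22-STAMP, at 0.00559, 0.00557 and 0.0104 against 0.0153, 0.0148 and 0.0295 (-0.99, SE 0.22, adjusted p = 0.0290). With each library left out in turn, Hif1a kept its call in 6 of 6 limma fits. Gpd1 and Pgm2l1 each lost theirs in 5 of 6 (limma adjusted p up to 0.0946 and 0.0693). Gpd1 kept it only without RPL22-STAMP replicate 2, and Pgm2l1 only without RPL22-STAMP replicate 1. Over all genes the share called also fell, from 14.3% to 8.29%, 5.32% and 4.59% without RPL10A-STAMP replicate 1, 2 or 3. Without RPL22-STAMP replicate 1 this share was 10.9%.

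Among 8 tested transporters of 14, 2 were called, both higher with RPL10A-STAMP. Slc16a7, which encodes the monocarboxylate transporter MCT2 that takes lactate into neurons, had 0.0344, 0.0345 and 0.0343 against 0.0129, 0.0131 and 0.00812 (log2 fold change 0.81, SE 0.18, limma adjusted p = 0.0299). Slc2a13, a proton and myo-inositol transporter of the glucose transporter family, had a log2 fold change of 0.68 (SE 0.13, adjusted p = 0.0164). Of the 8 genes of the pentose phosphate pathway 4 were tested, and Pgd, which encodes the 6-phosphogluconate dehydrogenase that yields NADPH, was higher with RPL22-STAMP, at 0.00775, 0.00813 and 0.00642 against 0.0279, 0.0204 and 0.0182 (-1.09, SE 0.22, adjusted p = 0.0202). The 4 called genes that were higher with RPL10A-STAMP had transcripts with a GC content of 40.9% to 45.3%, and Gpd1 and Pgd had 56.9% and 54.2%. Genes of these lists with similar or lower GC content that were not called had other log2 fold changes. These were 0.53 for Emb (44.9%), -0.01 for Mpc1 (45.0%), -0.06 for Slc16a1 (42.9%), -0.01 for Rpe (39.0%) and -0.64 for Pfkfb2 (45.3%). A link between GC content and the differences among these genes was not tested. With each library left out in turn, Slc16a7 lost its call in 5 of 6 limma fits (adjusted p up to 0.0876), all but the one without RPL22-STAMP replicate 1. Slc2a13 lost it in 4 (up to 0.0636), namely without RPL10A-STAMP replicate 1, 2 or 3 or RPL22-STAMP replicate 3, and Pgd in 2 (up to 0.0781), without RPL10A-STAMP replicate 2 or 3. Fewer of all genes were called as well without RPL10A-STAMP replicate 1, 2 or 3 (8.29%, 5.32% and 4.59%, against 14.3%). The share was 10.9% without RPL22-STAMP replicate 1. After removal of the trend with GC content, Hif1a was the 1 gene of the 6 called in these lists that was still called (limma adjusted p = 0.0249).

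**Figure D5:**
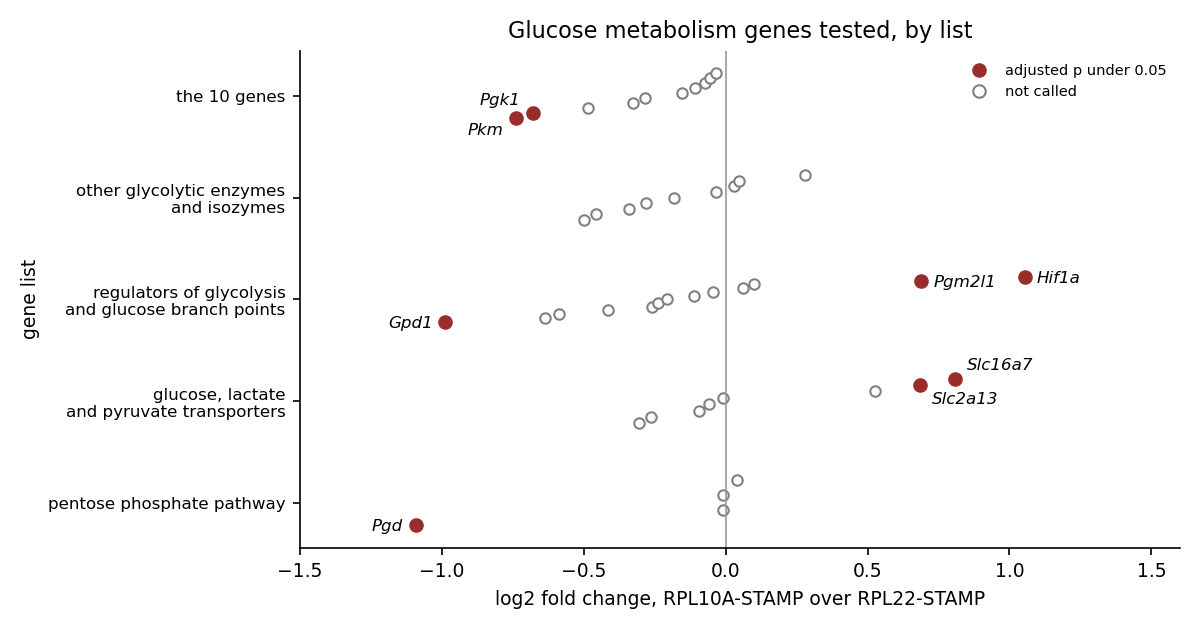
Log2 fold change, RPL10A-STAMP over RPL22-STAMP (horizontal axis), of every tested gene of the 10 enzymes and of 4 lists of related genes; filled points passed an adjusted p of 0.05 in the limma fit over 8046 genes (n = 3 libraries each). The 10 enzymes lie between -0.74 and -0.03, and the called regulators and transporters lie on both sides of 0.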

How the data were processed

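In the authors' pipeline, cutadapt-trimmed reads were mapped to mm10 by STAR. Reads with several mapping locations were kept up to the limit given above, and reads with more were dropped. SAILOR called the edits and featureCounts gave the reads of each gene. How the kept reads with several locations were counted, and on which annotation, is not given in the sources used here. The deposited unit is a ratio per gene and library, the EPR (edits over reads). Counts behind the ratio were not part of the tables analysed, so the depth per value is unknown and no counting interval was given.

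The 6 tables held 31053 gene IDs, of which 31011 were named from GENCODE M21 and 42 were not. Genes with an EPR above 0 in all 6 libraries, 8046 in number, were kept. Each library was scaled to a common median over them, log2(EPR + 0.01) was fitted with limma 3.58.1 (R 4.3.3; mean-variance trend, coefficient RPL10A-STAMP minus RPL22-STAMP), and p-values were adjusted by Benjamini-Hochberg over all 8046 genes at 0.05. Samples were grouped by the labels, and all 6 were used. Deposited EPR was also compared by exact permutation, two-sided, over the 20 labelings of 3 against 3. The script was tested on simulated data.

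Exact copies were 50-base runs of each gene's representative GENCODE transcript found on either strand of GRCm38 (the assembly of mm10) outside its own locus. Sequences were read from that assembly. Alternatives changed the pseudocount, scaling, filter, variance model and test, removed trends with GC content or transcript length, added a replicate block or left out a library. The genes named were the 10 enzymes, every called gene of 4 lists of related genes (at most 5 a list) or, where none was called, the 2 with the largest change, and isozymes. The 10 genes and the lists were chosen with earlier results of these data known.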

Additional observations from a re-analysis of the deposited data

How the results depend on the processing

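The count of called genes among the 10 enzymes was 2. Without Gapdh and the called Pgk1 (chosen after seeing the data) it was 1 of 8. It fell to 1 with genes edited in at least 3 libraries, with no filter, with a replicate block and with the GC trend removed. It fell to 0 with no scaling, with the GC trend removed together with the block, and with an unmoderated two-sided test on deposited EPR, where 1, 3 and 2 of the genes had an unadjusted p under 0.05. That unmoderated test called 0 of 8046 genes, with 1996 at an unadjusted p under 0.05. Leaving out 1 library gave 0 to 2. The share of all genes called, 14.3% in the main fit, fell as well. It was 6.91% with genes edited in at least 3 libraries and 4.44% with no filter. With the replicate block it was 7.49%, and with the GC trend removed 8.68%. Without RPL10A-STAMP replicate 1, 2 or 3 it was 8.29%, 5.32% and 4.59%, and without RPL22-STAMP replicate 1 it was 10.9%. The cause of these changes was not tested. The 6 calls in the 4 lists became 3 with no filter, 4 with the replicate block (Pgm2l1 at an adjusted p of 0.0544 and Slc2a13 at 0.0508 lost theirs), 1 with the GC trend removed, 0 with that and the block, 0 with the unmoderated test (6 at an unadjusted p under 0.05), and 1 to 5 with 1 library left out.

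The median log2 fold change over the 10 enzymes (-0.22) was -0.46 with a pseudocount of 0.001, -0.52 with none and -0.0663 with 0.05, as a larger pseudocount shrinks low values. It was -0.0570 with no scaling, 0.0249 with the GC trend removed, with or without the block, and -0.26 to -0.19 with 1 library left out. With no scaling, the log2 fold changes of Hk1, Aldoa, Gapdh, Eno2 and Ldhb turned to 0.0182, 0.0104, 0.0282, 0.221 and 0.0945, and as log2 ratios of deposited means, in the unmoderated test, to 0.0889, 0.0221, 0.0869, 0.331 and 0.206. With the GC trend removed they were 0.19, 0.16, 0.15, 0.22 and 0.13, with or without the block. With the length trend removed, Gapdh had 0.0327 and Ldhb 0.0827. With 1 library left out, Hk1 ranged from -0.195 to 0.00672 and Ldhb from -0.134 to 0.0604. None of these 5 genes was called in any setting. Per kilobase of transcript, 5 of the 10 enzymes kept their place in the order of EPR.

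The deposited differences (RPL10A-STAMP minus RPL22-STAMP) of these 5 genes, in the same order, turned to -0.0501, -0.152, -0.0954, -0.0535 and -0.0578 library medians after division by the median. With 1 library left out they ranged from -0.000686 to 0.000728 for Hk1, from -0.000505 to 0.000537 for Aldoa, from -0.000417 to 0.000883 for Gapdh and from -8.53e-06 to 0.00236 for Ldhb.

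Whether the replicate numbers shared by the groups pair the samples is not given in the labels. Deviations of same-numbered libraries correlated at 0.0437, 0.0464 and -0.00546, which cannot settle it. With the replicate block, 603 of 8046 genes were called in place of 1149, Pkm had an adjusted p of 0.0451 and Pgk1 one of 0.0630, by limma. With genes edited in at least 3 libraries 754 of 10909 were called (6.91%), and with no filter 569 of 12811 (4.44%). With the GC trend removed 698 of 8039 were called (8.68%), and with that and the block 223 (2.77%). No scaling gave 1085 of 8046 (13.5%). The depth behind each EPR is unknown, so low values such as those of Hk1 carry an error that the spread of 3 libraries alone describes.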
